A study of Mus musculus with 6 samples.

Results

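The B cell receptor and immunoglobulin genes described here are 8 genes, Ighm, Igkc, Jchain, Cd79a, Cd79b, Ms4a1, Pax5 and Ebf1, found by symbol among the 52550 genes deposited, with 1 entry each. They were proposed with the difference between the groups in view, so their own differences are given as a description, with no test. Their counts were compared between mouse macrophages given culture medium of apoptotic chondrocytes (AC CM, n = 3) and macrophages given the medium of normal chondrocytes (C CM, n = 3). The macrophages of both groups were grown for 7 days from C57BL/6 bone marrow, after lysis of red blood cells, with M-CSF, the growth factor of macrophages, at 25 ng/ml. Neither a genetic change nor a separate untreated group is named in the labels, and how apoptosis was induced is not given there. Whether the 3 samples of each group stem from different animals or cultures is not in the labels, so p-values rest on the spread between samples, and that spread may be technical.

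A B cell receptor is a membrane antibody with an attached signalling pair. Ighm encodes the constant region of the IgM heavy chain and Igkc that of the kappa light chain, each joined in a B cell to 1 rearranged set of variable segments. Cd79a and Cd79b encode the Ig-alpha and Ig-beta chains that carry the signal into the cell. Ms4a1 encodes CD20, a surface protein of B cells. Ebf1 and Pax5 are the transcription factors that set up and hold B cell identity, and Jchain encodes the chain that links IgM and IgA units when antibody is secreted. In bone marrow these genes mark the B lineage, which is not the lineage that M-CSF expands, although Ebf1 is also made by stromal and fat cells.

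The libraries held 70802852 to 80105872 counts in AC CM and 65630784 to 68852308 counts in C CM. Macrophage markers (11 genes) summed to between 14795 and 14915 CPM (counts scaled to a common library size by TMM) in AC CM and to between 15658 and 16716 CPM in C CM. Hepatocyte markers set AC CM replicates 2 and 3 apart: 10 such genes summed to 47.8, 596 and 1368 CPM in AC CM replicates 1, 2 and 3, against 43.4, 1.62 and 0.537 CPM in C CM replicates 1, 2 and 3. Fold changes of the 8 genes that move by more than 1.5 times without those 2 libraries are given both ways. Low counts were not spread evenly, since each library held 394 to 446 genes counted 3 times and 696 to 814 genes counted 4 times, for a reason that was not tested.

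All 8 members passed the filter on low counts, Cd79a and Jchain only through the C CM libraries. In 7 of the 8, every AC CM library was below every C CM library in CPM, and Jchain overlapped. Of 17863 genes tested, 22.1% had the same separation. Nothing is read from this count, because the members were chosen on this contrast. Log2 fold changes (AC CM over C CM) ran from -3.81 to -0.23, with a median of -2.16, beside a median of 0.00 over all genes tested. In RNA of a whole culture, fewer cells of a type and less RNA per cell cannot be told apart.

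**Figure D1:**
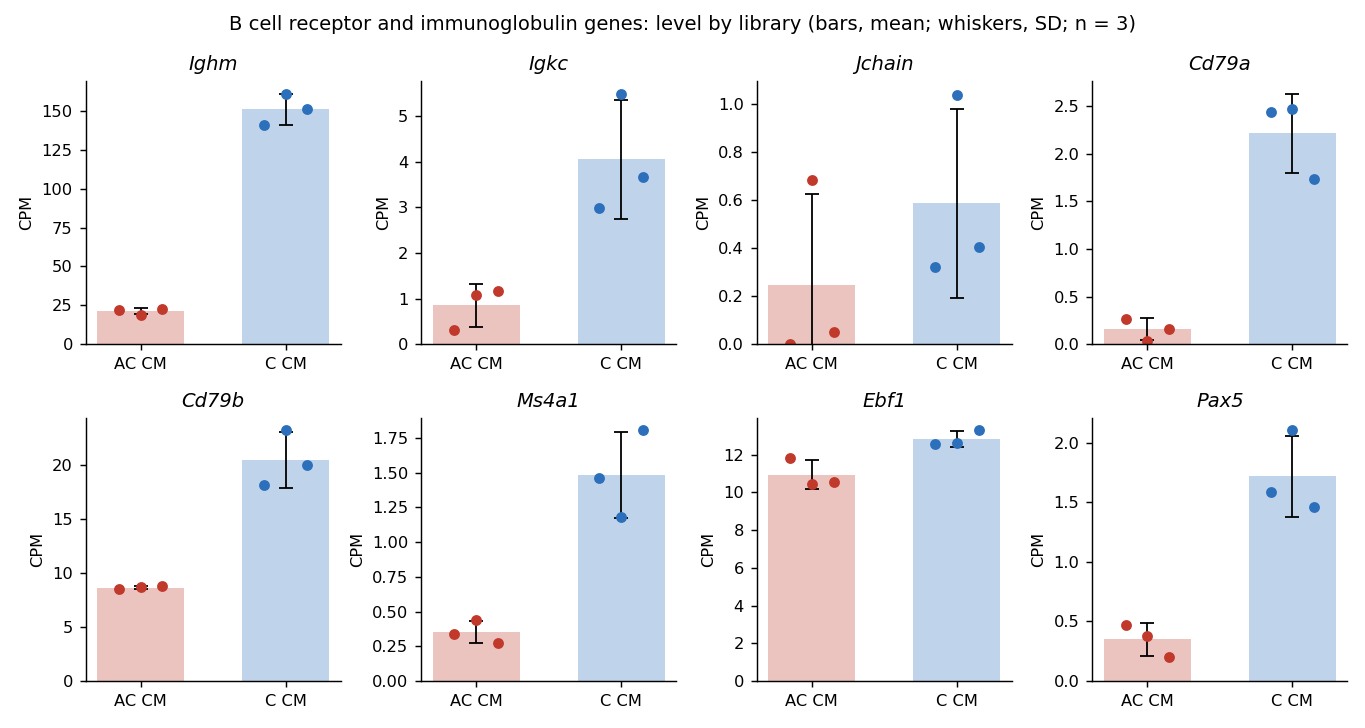
Level (CPM, linear axes from 0) of the 8 genes in each AC CM library (red, left) and C CM library (blue, right), with bars at the mean and whiskers of 1 SD (n = 3 each, the lower whisker of Jchain ends at 0). The AC CM points lie under all C CM points in 7 panels, the gap is narrow for Ebf1 (10.9 against 12.8 CPM on average), and the groups overlap for Jchain.

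Ighm was the most abundant of the 8 genes in both groups. Its counts were 1545, 1462 and 1799 in AC CM replicates 1, 2 and 3, against 9250, 11020 and 10116 in C CM replicates 1, 2 and 3. The AC CM libraries were close to each other and far below the C CM libraries. The mean was 21.1 ± 1.96 CPM in AC CM and 151 ± 10.01 CPM in C CM (SD, n = 3 each), so AC CM held 14.0% of the C CM level (log2 fold change -2.84, SE 0.09). Ighm (ENSMUSG00000076617.9) lies on chromosome 12 from 113418558 to 113422730 on the minus strand, in GRCm38 coordinates. Membrane and secreted IgM share this entry and are not separated in a count per gene.

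Igkc (ENSMUSG00000076609.2), on chromosome 6 from 70726435 to 70726966 on the plus strand, was far less abundant. Its counts were 22, 84 and 93 in AC CM replicates 1, 2 and 3, against 196, 376 and 246 in C CM replicates 1, 2 and 3. Igkc lies inside the lincRNA gene Gm30211 on the same strand, which had few counts. All AC CM counts of Igkc were under the lowest C CM count, but AC CM replicate 1 was several times under the other two. The mean was 0.855 ± 0.472 CPM in AC CM and 4.05 ± 1.30 CPM in C CM (log2 fold change -2.24, SE 0.46). Set against C CM, AC CM replicate 1 alone gave a log2 fold change of -3.69. Per kilobase of exon, the Ighm level was 19.8, 4.91 and 5.46 times that of Igkc in AC CM replicates 1, 2 and 3, against 13.3, 8.27 and 11.6 times in C CM replicates 1, 2 and 3. By these counts Ighm exceeded Igkc in every library. The factor varied more among AC CM than among C CM libraries, and in AC CM replicate 1 it rests on 22 counts of Igkc. How reads that fall in both Igkc and Gm30211 were counted is not stated, and its part in the ratio was not tested.

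The signalling pair was uneven. Cd79a (ENSMUSG00000003379.7) lies on chromosome 7 from 24897381 to 24902197 on the plus strand, and Cd79b (ENSMUSG00000040592.11) on chromosome 11 from 106311341 to 106314762 on the minus strand. Cd79a counts were 19, 3 and 13 in AC CM replicates 1, 2 and 3, against 160, 169 and 116 in C CM replicates 1, 2 and 3. Cd79b counts were 600, 671 and 698 in AC CM replicates 1, 2 and 3, against 1191, 1590 and 1343 in C CM replicates 1, 2 and 3. Neither gene overlapped between the groups, and Cd79b was well above Cd79a in all 6 libraries. Cd79a averaged 0.157 ± 0.116 CPM in AC CM and 2.21 ± 0.418 CPM in C CM (log2 fold change -3.81, SE 0.54). Without AC CM replicate 1 its log2 fold change was -4.43, and AC CM replicate 1 alone against C CM gave -3.03. Cd79b averaged 8.65 ± 0.122 CPM in AC CM and 20.5 ± 2.57 CPM in C CM, a smaller difference (log2 fold change -1.24, SE 0.12). Per kilobase of exon the Cd79b level was 32.2, 228 and 54.7 times that of Cd79a in AC CM replicates 1, 2 and 3, against 7.58, 9.58 and 11.8 times in C CM replicates 1, 2 and 3. Both chains are needed together in the receptor, and in these libraries their transcripts did not keep a fixed ratio. The ratio in AC CM replicate 2 rests on 3 counts of Cd79a. Per kilobase of exon the Ighm level was 1.95, 1.65 and 1.96 times that of Cd79b in AC CM replicates 1, 2 and 3. In C CM replicates 1, 2 and 3 it was 5.89, 5.26 and 5.72 times. The levels of Ighm and Cd79b were thus nearer to each other in every AC CM library. This restates their log2 fold changes of -2.84 and -1.24, and Ighm counts do not separate membrane from secreted IgM.

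Promoter sequences of RefSeq on GRCm38.p6 were on hand for 4 of the 8 members, Cd79a, Pax5, Jchain and Ebf1. The stretches before the starts of Cd79a and Pax5 are shown because both genes are B lineage genes with large differences between the groups. The Cd79a stretch is chr7:24897247-24897380 on the plus strand, which ends where the deposited gene begins, and the Pax5 stretch is chr4:44710695-44710944 on the minus strand. The RefSeq start of Pax5 (44710694) lies outside the deposited gene, which begins at 44710487, so the Pax5 stretch does not adjoin it. Capitals mark the E box CAGGTG, the kind of site bound by E proteins such as TCF3, on either strand.
Cd79a: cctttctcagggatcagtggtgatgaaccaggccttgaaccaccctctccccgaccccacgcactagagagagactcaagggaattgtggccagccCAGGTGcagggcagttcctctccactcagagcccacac
Pax5: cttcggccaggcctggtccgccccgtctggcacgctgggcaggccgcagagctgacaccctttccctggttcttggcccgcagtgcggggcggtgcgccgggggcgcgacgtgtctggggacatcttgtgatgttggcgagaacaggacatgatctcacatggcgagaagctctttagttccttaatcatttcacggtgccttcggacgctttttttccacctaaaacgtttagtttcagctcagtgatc
Over the 250 bases before each RefSeq start, both strands searched, Cd79a held 1 E box and 1 ETS site (GGAAGT, which here lies past the stretch shown) and no EBF palindrome (CCCNNGGG). Pax5 and Jchain held none of the 3 motifs, and of the 2 Ebf1 starts 1 had an ETS site. These Ebf1 starts lie 783 and 2911 bases inside the deposited gene. The Cd79a matches did not overlap each other. Of all 32851 promoters searched, 17.2% held the E box, 19.7% the ETS site and 11.8% the EBF palindrome. A match is a description of the letters and not evidence of binding.

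Ms4a1 (ENSMUSG00000024673.9) and Pax5 (ENSMUSG00000014030.15, chromosome 4, 44524757 to 44710487, minus strand) were both scarce. Ms4a1 counts were 24, 34 and 22 in AC CM replicates 1, 2 and 3, against 96, 81 and 121 in C CM replicates 1, 2 and 3. Its mean was 0.352 ± 0.0824 CPM in AC CM and 1.48 ± 0.312 CPM in C CM (log2 fold change -2.07, SE 0.34). Pax5 counts were 33, 29 and 16 in AC CM replicates 1, 2 and 3, against 104, 144 and 98 in C CM replicates 1, 2 and 3. Its mean was 0.348 ± 0.136 CPM in AC CM and 1.72 ± 0.341 CPM in C CM (log2 fold change -2.30, SE 0.38). For both genes the highest AC CM library stayed well under the lowest C CM library. Ms4a1 (chromosome 19, 11249675 to 11266241, minus strand) lies inside the span of 4930526L06Rik, a gene on the other strand, and whether counting used strand is not stated.

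Ebf1 (ENSMUSG00000057098.14, chromosome 11, 44617317 to 45008091, plus strand) differed least between the groups among the 8 genes. Its counts were 834, 808 and 840 in AC CM replicates 1, 2 and 3, against 825, 862 and 891 in C CM replicates 1, 2 and 3. After scaling, the AC CM libraries were just below the C CM libraries, at 10.9 ± 0.778 CPM in AC CM and 12.8 ± 0.409 CPM in C CM. That is 85.3% of the C CM level (log2 fold change -0.23, SE 0.11), where Pax5 was at 20.3% and Cd79a at 7.10%. Ebf1 was also the more abundant factor: per kilobase of exon it reached 1.12 ± 0.0798 CPM in AC CM and 1.31 ± 0.0419 CPM in C CM, against 0.0393 ± 0.0153 CPM in AC CM and 0.194 ± 0.0385 CPM in C CM for Pax5. Transcripts of stromal cells, another known source of Ebf1, were present in all 6 libraries. The 11 stroma, fibroblast and fat cell markers summed to between 3136 and 3235 CPM in AC CM and to between 4013 and 5012 CPM in C CM. Of the 10 of them tested, 5 fell, 0 rose and 5 did not pass (edgeR, adjusted p under 0.05). Among all genes tested with a mean of at least 1 CPM, 15.6% fell and 16.2% rose. Of the 5 that fell, the chemokine gene Cxcl12 was at -0.68 (SE 0.07) on the log2 scale. The collagen genes Col1a1 and Col1a2 were at -0.52 (SE 0.10) and -0.41 (SE 0.08). The receptor genes Pdgfra and Pdgfrb were at -0.72 (SE 0.11) and -0.56 (SE 0.07). Of the others, named after their values were seen, Lepr (0.45, adjusted p = 0.0980) and Lum (0.51, adjusted p = 0.103) were higher in every AC CM library than in any C CM library without passing, and Dcn (0.11, adjusted p = 0.501) overlapped. The sums were mostly Col1a1 and Col1a2, which averaged 1341 and 1561 CPM in AC CM, and 1916 and 2079.9 CPM in C CM. The part of these cells in the Ebf1 level was not tested. Taking AC CM replicate 1 alone against C CM, Ebf1 was at -0.12, and Pdgfrb, Col1a1 and Col1a2 did not pass (adjusted p = 0.0757, 0.137 and 0.128).

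Jchain (ENSMUSG00000067149.6, chromosome 5, 88519809 to 88527891, minus strand) was counted 0, 53 and 4 times in AC CM replicates 1, 2 and 3, against 21, 71 and 27 in C CM replicates 1, 2 and 3. It was the single member whose groups overlapped, because AC CM replicate 2 was above 2 of the 3 C CM libraries. Its mean was 0.245 ± 0.382 CPM in AC CM and 0.587 ± 0.393 CPM in C CM (log2 fold change -1.25, SE 1.26). Without AC CM replicate 2 the log2 fold change was -4.40. It was -0.55 without C CM replicate 2, -0.68 without AC CM replicate 1 and -0.76 without AC CM replicate 3, so its size rests on single libraries. AC CM replicate 1 alone gave -8.32, a fitted value that rests on 0 counts and is no bound. AC CM replicate 2 also held the most transcripts of switched antibody classes, those of IgG, IgA and IgE. The 6 switched heavy constant genes summed to 0, 191 and 20 counts in AC CM replicates 1, 2 and 3, against 24, 33 and 49 counts in C CM replicates 1, 2 and 3. Igha, the IgA heavy chain, was counted 0, 75 and 20 times in AC CM replicates 1, 2 and 3, against 12, 12 and 0 in C CM replicates 1, 2 and 3 (log2 fold change 1.76, SE 1.46, edgeR adjusted p = 0.43). The Igha value was 0.09 without AC CM replicate 2 and turned to -6.04 with AC CM replicate 1 alone, which had 0 counts. Pigr, the receptor that carries IgA across epithelium and is also made by liver cells, was counted 9, 342 and 405 times in replicates 1, 2 and 3 of AC CM and never in the 3 C CM libraries. It was named after its values were seen. The hepatocyte markers above were highest in AC CM replicates 2 and 3, and their part in the Jchain and Igha counts was not tested.

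**Figure D2:**
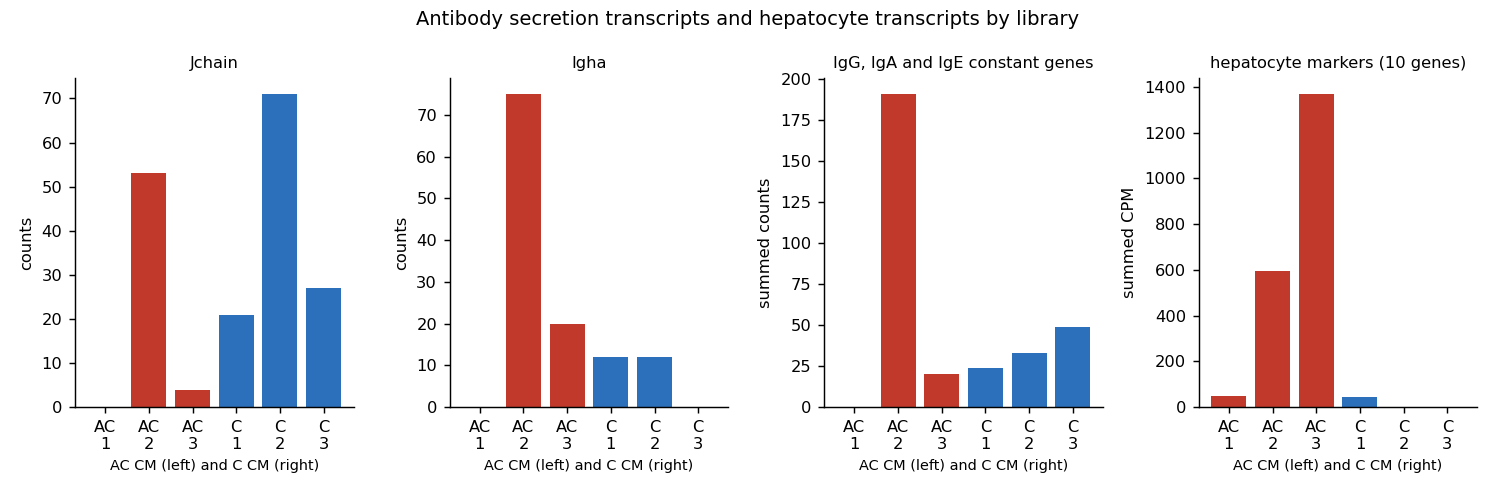
Counts of Jchain, of Igha and of the 6 switched heavy constant genes summed, and summed CPM of 10 hepatocyte markers, in each AC CM library (red, left) and C CM library (blue, right). AC CM replicate 2 has 191 switched-class counts against 0 and 20 in AC CM replicates 1 and 3, while the hepatocyte sum is highest in AC CM replicate 3 (1368 CPM).

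The order of the levels per kilobase of exon was similar in the groups. In AC CM it ran Ighm (11.2 ± 1.04 CPM per kilobase), Cd79b (6.04 ± 0.0850), Igkc (1.61 ± 0.887), Ebf1 (1.12 ± 0.0798), Cd79a (0.108 ± 0.0793), Jchain (0.0974 ± 0.152), Ms4a1 (0.0569 ± 0.0133) and Pax5 (0.0393 ± 0.0153). In C CM it ran Ighm (80.1 ± 5.31), Cd79b (14.3 ± 1.79), Igkc (7.62 ± 2.44), Cd79a (1.52 ± 0.287), Ebf1 (1.31 ± 0.0419), Ms4a1 (0.240 ± 0.0504), Jchain (0.233 ± 0.156) and Pax5 (0.194 ± 0.0385). Within AC CM the ranges of Igkc and Ebf1 overlapped, as did those of each pair of neighbours from Cd79a down to Pax5. Within C CM the ranges of Cd79a and Ebf1 overlapped, as did those of Ms4a1, Jchain and Pax5.

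The variable regions that a rearranged receptor would use were counted as separate segments. The table lists 382 V, D and J segments of the heavy, kappa and lambda loci, which were not among the members. All segments together summed to 55, 69 and 77 in AC CM replicates 1, 2 and 3, against 411, 619 and 491 counts in C CM replicates 1, 2 and 3. A count was found for 11, 14 and 16 segments in AC CM replicates 1, 2 and 3, against 48, 58 and 53 segments in C CM replicates 1, 2 and 3, although the AC CM libraries were deeper. Summed, the segments were at 0.880 ± 0.0932 CPM in AC CM and 7.55 ± 1.40 CPM in C CM (SD, n = 3 each), lower in 3 of 3 AC CM libraries (2-sided exact permutation p = 0.1, the smallest that 3 against 3 samples can give, and 0.12 adjusted over the 6 sums tested). The heavy segments were at 0.552 ± 0.176 CPM in AC CM and 3.62 ± 1.35 CPM in C CM. The kappa segments were at 0.304 ± 0.186 CPM in AC CM and 3.06 ± 0.409 CPM in C CM, and the lambda segments at 0.0231 ± 0.0298 CPM in AC CM and 0.865 ± 0.336 CPM in C CM. Set against Ighm of the same library, the segments came to between 3.56% and 4.72% of the Ighm counts in AC CM and to between 4.44% and 5.62% in C CM. Ighm thus outnumbered all segments of the 3 loci together in every library, by counts that are not scaled for length.

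**Figure D3:**
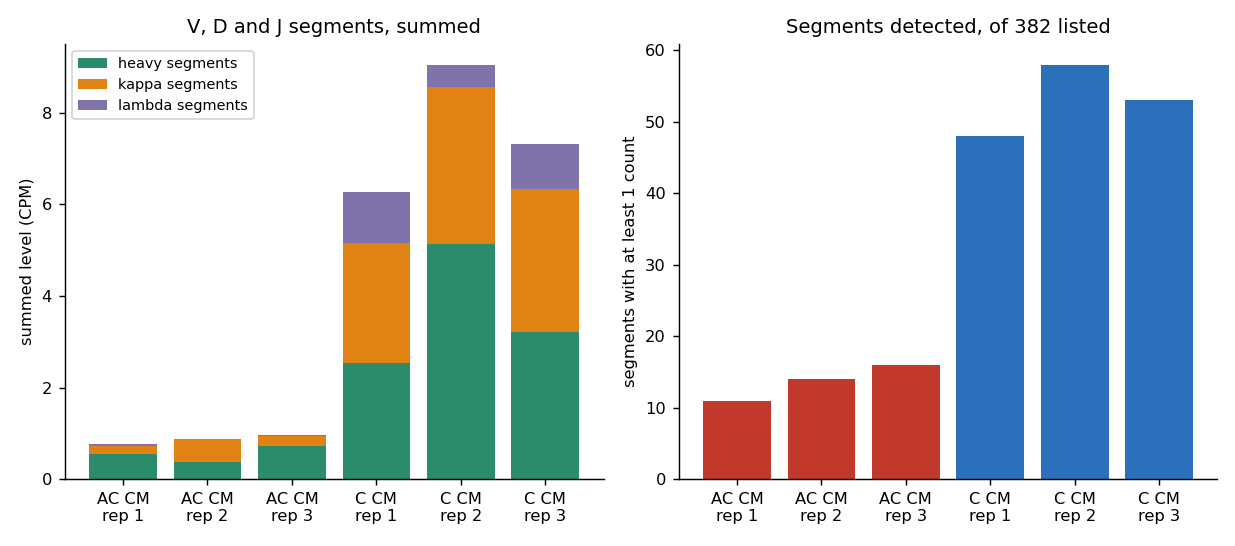
Left, summed level (CPM) of heavy, kappa and lambda segments in each AC CM and C CM library. Right, segments with at least 1 count among the 382 listed, 11 to 16 in AC CM and 48 to 58 in C CM.

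Lambda light chain and IgD transcripts were scarce in AC CM. Besides the members the table holds 393 immunoglobulin genes, of which 116 had a count in any library and 11 were tested. Of these 11 genes 7 fell, 0 rose and 4 did not pass, beside 4.93% that fell among all tested genes with a mean under 1 CPM. As 9 of the 11 passed the filter only through the C CM libraries, where they were high, these counts are a description and no support for a direction. The 5 genes named next are all among those 9. Iglc1, a lambda constant gene on chromosome 16, had no count in the 3 AC CM libraries, against 27, 38 and 34 in C CM replicates 1, 2 and 3. It was at least 37.4-fold lower in AC CM, taken against a floor of 3 counts over the group (edgeR adjusted p = 0.00175). Ighd, the IgD heavy chain made by mature B cells, was counted 0, 0 and 5 times in AC CM replicates 1, 2 and 3, against 23, 65 and 52 in C CM replicates 1, 2 and 3 (adjusted p = 0.00764). Iglc2 was counted 0, 5 and 11 times in AC CM replicates 1, 2 and 3, against 33, 51 and 41 in C CM replicates 1, 2 and 3 (adjusted p = 0.0240), a call lost without AC CM replicate 2 (adjusted p = 0.0870) or C CM replicate 1 (0.0518), 2 (0.0901) or 3 (0.0708). The lambda segment Iglv1 had 4, 0 and 0 counts in AC CM, against 49, 32 and 42 in C CM (adjusted p = 0.00625). The kappa segment Igkv15-103 had 0, 0 and 6 counts in AC CM, against 39, 34 and 26 in C CM (adjusted p = 0.0176), a call lost without AC CM replicates 1 or 2 or C CM replicates 1 or 2 (adjusted p = 0.0538 to 0.0623). Lambda constant genes are near copies of each other, so their counts are uncertain one by one. The Iglv1 call was lost with AC CM replicate 1 alone (adjusted p = 0.0620).

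A total of 95 other genes of the B lineage were listed by role, and 79 were tested, 16 of them admitted by the filter only through C CM, where they were high, so the counts below are a description. Of the 79 genes 29 fell, 10 rose and 40 did not pass, beside 13.3% lower and 13.3% higher among all genes tested. The median log2 fold change was -0.46. Of 60 genes with a mean of at least 1 CPM, 23 fell and 10 rose, beside 15.6% lower and 16.2% higher among all genes at that level. Of 19 genes under 1 CPM, 6 fell and 0 rose, beside 4.93% and 2.81%. When AC CM replicate 1 alone was set against C CM, fewer B lineage genes changed, as did fewer of all genes. The lists were written with earlier results of these data known.

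Of 15 transcription factors of the B lineage 8 fell, 1 rose and 6 did not pass. Over all genes tested, 13.3% were lower and 13.3% higher. Spib, an ETS factor of B cells and plasmacytoid dendritic cells, was counted 26, 16 and 41 times in AC CM replicates 1, 2 and 3, against 227, 244 and 260 in C CM replicates 1, 2 and 3 (log2 fold change -3.32, SE 0.33, edgeR adjusted p = 1.55e-04). Bcl11a changed by -2.42 (SE 0.40), Ikzf3, which encodes Aiolos, by -2.33 (SE 0.40, and -3.19 with AC CM replicate 1 alone) and Irf4 by -1.31 (SE 0.15). Factors shared with macrophages were abundant and had smaller fold changes. Pou2f2 changed by -0.48 (SE 0.06) and Irf8 by -0.46 (SE 0.08), while Spi1, the gene of PU.1, was at -0.15 (SE 0.09, adjusted p = 0.285) and Tcf4 at -0.46 (SE 0.21, adjusted p = 0.174). Tcf4 was counted 3772, 7438 and 7240 times in AC CM replicates 1, 2 and 3, against 6765, 7751 and 7621 in C CM replicates 1, 2 and 3, so AC CM replicate 1 alone was low. That library alone against C CM gave -1.04 (adjusted p = 0.00567), and by DESeq2 with all libraries Tcf4 passed at -0.46 (adjusted p = 0.0364). The repressor gene Bcl6 rose by 0.89 (SE 0.08), with 104 ± 2.39 CPM in AC CM and 56.1 ± 4.39 CPM in C CM. In the fit of AC CM replicate 1 alone against C CM, the calls of Bcl11a, Pou2f2 and Irf8 were lost (adjusted p = 0.0700, 0.0795 and 0.221).

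Of 16 B cell surface genes tested 6 fell, 2 rose and 8 did not pass. Over all genes tested, 13.3% were lower and 13.3% higher. The filter admitted 6 of the 16 only through C CM. Cd24a, the heat stable antigen of B cell precursors and other blood cells, had 2.23 ± 0.213 CPM in AC CM and 10.2 ± 1.58 CPM in C CM (log2 fold change -2.19, SE 0.17, adjusted p = 3.76e-05). Cr2, the complement receptor of B cells, had no count in AC CM against 11, 24 and 17 in C CM replicates 1, 2 and 3, at least 19.6-fold lower against 3 counts over the group. Cd40 changed by -0.94 (SE 0.12), Cd38 by -0.65 (SE 0.10) and Fcrl1 by -0.60 (SE 0.08). The Toll-like receptor relative Cd180 rose by 0.77 (SE 0.09) and the BAFF and APRIL receptor gene Tnfrsf13b by 0.29 (SE 0.06). Cd72 was at 0.15 (SE 0.06, adjusted p = 0.122) and Cd37 at 0.05 (SE 0.08, adjusted p = 0.681), with 258 and 125 CPM in AC CM, against 232 and 120.2 CPM in C CM. When AC CM replicate 1 alone was kept, the calls of Fcrl1, Cd38, Cr2 and Tnfrsf13b were lost (adjusted p = 0.0644, 0.0577, 0.117 and 0.328), and without C CM replicate 1 Cd72 passed (adjusted p = 0.0431).

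The signalling genes downstream of the receptor were abundant in both groups, and macrophages are known to use many of them below other receptors. All 24 tested had a mean of at least 1 CPM, and 9 fell, 3 rose and 12 did not pass. Among all genes tested at that level, 15.6% were lower and 16.2% higher. The adaptor gene Blnk fell, with 44.6 ± 1.45 CPM in AC CM and 85.4 ± 3.35 CPM in C CM (log2 fold change -0.94, SE 0.07, edgeR adjusted p = 3.18e-05). The exchange factor gene Vav2 changed by -0.94 (SE 0.07), the kinase gene Syk by -0.61 (SE 0.06) and the adaptor gene Dapp1 by -0.75 (SE 0.08). The kinase gene Lyn rose by 0.29 (SE 0.06) and the adaptor gene Pik3ap1 by 0.44 (SE 0.06). The Lyn call was lost without AC CM replicate 1 (adjusted p = 0.0520). The phosphatase genes Ptprc, at 0.11 (SE 0.12, adjusted p = 0.546), and Inpp5d, at -0.08 (SE 0.07, adjusted p = 0.455), did not pass. None of the 24 genes was as low as Cd79a or Ighm in fold change. Without AC CM replicates 2 and 3, Pik3ap1 and Lyn did not pass (adjusted p = 0.0988 and 0.186).

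Genes of early B cell development differed widely in level. The surrogate light chain genes Vpreb2 and Igll1 and the recombinase gene Rag2 had no count in any of the 6 libraries. Their relatives Vpreb1 and Rag1 had few. Vpreb1 was counted 10, 18 and 4 times in AC CM replicates 1, 2 and 3, against 15, 4 and 21 in C CM replicates 1, 2 and 3. Rag1 had 5, 0 and 5 counts in AC CM, against 13, 16 and 24 in C CM (log2 fold change -2.53, SE 0.93, edgeR adjusted p = 0.0780). It passed the filter only through C CM. Vpreb3 and Dntt also had a few counts. In all, 8 of the 13 genes on this list were tested, 2 of them admitted by the filter only through C CM. Over all genes tested, 13.3% were lower and 13.3% higher. Of these 8 genes Erg fell by 1.48 on the log2 scale (SE 0.27), Cd93 and Bst1 rose by 0.58 (SE 0.07) and 0.83 (SE 0.11), and 5 did not pass. Cd93, an early B cell marker also made by myeloid cells, was at 1689 CPM in AC CM and 1133 CPM in C CM. Il7r, the receptor of the B cell growth factor IL-7, was at 0.22 (SE 0.10, adjusted p = 0.131) and Sox4 at -0.24 (SE 0.14, adjusted p = 0.233). Of 10 plasma cell genes tested 2 fell, 2 rose and 6 did not pass, beside 13.3% lower and 13.3% higher among all genes tested. The filter admitted 2 of the 10 only through C CM. Prdm1, the gene of Blimp-1, changed by -1.09 (SE 0.11) and Sdc1, the gene of CD138, by -0.68 (SE 0.13). The secretory pathway genes Xbp1 and Edem1 rose by 0.32 (SE 0.06) and 0.61 (SE 0.07), and Slamf7 was at 0.08 (SE 0.09, adjusted p = 0.551). Xbp1 and Sdc1 did not pass with AC CM replicate 1 alone (adjusted p = 0.251 and 0.149).

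**Figure D4:**
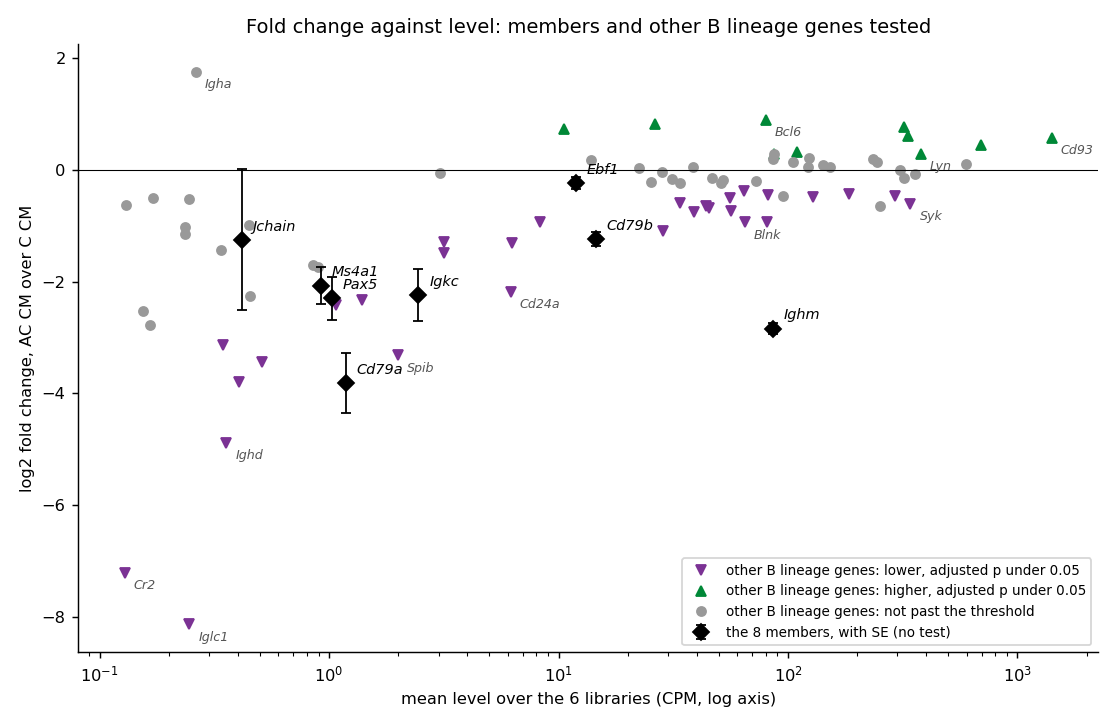
Log2 fold change (AC CM over C CM) against mean level (CPM, log axis) for the 8 members (black, with SE) and the 79 other B lineage genes tested (coloured by the edgeR call). The members lie at -3.81 to -0.23, the genes that rose have means of over 1 CPM, and Ighm is the member with both a high level and a large difference.

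Markers of several other blood cells were also lower in AC CM. The shares over all genes tested were 15.6% lower and 16.2% higher at a mean of at least 1 CPM. Under 1 CPM they were 4.93% lower and 2.81% higher. Of 9 neutrophil and granulocyte precursor markers tested 8 fell, 0 rose and 1 did not pass, and the list of 10 summed to between 180.5 and 198 CPM in AC CM and to between 856 and 1001 CPM in C CM. Of 7 NK cell markers tested 6 fell and 1 did not pass, with a sum over the 9 listed of 1.89 to 2.88 CPM in AC CM and 9.20 to 9.76 CPM in C CM. Nkg7, a granule protein gene, was at -2.30 (SE 0.30). Of 9 T cell markers tested 5 fell and 4 did not pass, with Thy1 at -2.24 (SE 0.31). The sums over the 12 listed T cell markers were set by Cd28 and overlapped, at 84.4 to 86.0 CPM in AC CM and 77.3 to 95.8 CPM in C CM. Of 6 plasmacytoid dendritic cell markers tested 3 fell and 3 did not pass. The 7 listed summed to 353 to 394 CPM in AC CM and 515 to 657 CPM in C CM, nearly all from Bst2, an interferon-inducible gene of many cells at -0.60 (SE 0.10). Siglech, a defining gene of plasmacytoid dendritic cells, was at 0.363 ± 0.181 CPM in AC CM and 2.00 ± 0.449 CPM in C CM (log2 fold change -2.46, SE 0.43, edgeR adjusted p = 0.00324). Of 8 conventional dendritic cell markers tested 6 fell and 2 did not pass, with sums of 68.2 to 91.0 CPM in AC CM and 145 to 182 CPM in C CM. Only through C CM did 5 of the 9 T cell, 4 of the 7 NK cell, 4 of the 8 conventional dendritic and 1 of the 6 plasmacytoid markers pass the filter, so these counts are no support for a direction. The part of these cell types in the Ighm, Jchain and Spib levels was not tested. Of 11 macrophage markers 3 fell, 1 rose and 7 did not pass. Of 5 chondrocyte markers tested 0 changed by edgeR, DESeq2 or limma-voom (0 also at an unadjusted p under 0.05 by each). The 3 others listed were too low to test and had no count in C CM. Acan was counted 8, 9 and 12 times in AC CM replicates 1, 2 and 3. In the same libraries Hapln1 had 0, 4 and 9 counts, and Col9a1 had 0, 0 and 4. Without C CM replicate 1 the collagen gene Col2a1 passed (0.28, adjusted p = 0.0274), and without C CM replicate 2 the dendritic marker Fscn1 did (adjusted p = 0.0398), as it did by DESeq2 (adjusted p = 0.00522). Among the calls counted, Lag3 was lost without any 1 library other than C CM replicate 1 (adjusted p = 0.0562 to 0.106). Lck was lost without AC CM replicate 3, C CM replicate 1 or C CM replicate 2 (adjusted p = 0.0535 to 0.0680), and Trbc1 without AC CM replicates 2 or 3 or C CM replicates 1 or 2 (adjusted p = 0.0507 to 0.0794). AC CM replicate 1 alone left Bst2, Lag3, Lck, Trbc1, Gzmb, Mertk and Mrc1 short of the threshold (adjusted p = 0.0896 to 0.287).

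The genes nearest to Ighm in their profile over the 6 libraries were looked for among 10298 genes with a mean of at least 5 CPM and a symbol that is not that of a predicted gene. Nearness was the root mean square difference between mean-centred log2 levels. The 5 nearest were the neutrophil granule gene Ngp (0.147), the adhesion receptor gene Adgre4 (0.150), the prostaglandin-degrading enzyme gene Hpgd (0.166) and the calcium-binding protein genes S100a8 (0.197) and S100a9 (0.202). Their mean levels were 35.3, 9.23, 7.49, 23.2 and 46.9 CPM in AC CM, against 210.4, 56.8, 64.3, 138 and 267 CPM in C CM. The 6 libraries form 2 groups, so this measure depends largely on how far apart the groups are.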

How the data were processed

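RNA was sequenced from 3 AC CM and 3 C CM macrophage samples, with an mRNA library kit per the labels' protocols. The values are raw counts per gene as deposited by the authors. The authors also deposited a normalized signal (counts over 1 constant per sample), log2 fold changes and p-values of their own comparison, none of which is printed. Tools named in the submitters' processing notes, without roles, are HISAT2 2.1.0, fastp 0.17.1, R 3.4.3 and DESeq2 1.18.1. For the read counter, its use of strand and the genome build, nothing is stated (not given in the sources used here). Of the 52550 gene IDs 52403 matched GENCODE M21 (GRCm38), and 95.2% of these had the same coordinates, so exon lengths were taken from it.

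Genes with enough counts (edgeR's filterByExpr, a cutoff of 0.143 CPM in 3 samples) were scaled by TMM and tested with edgeR 4.0.16 (robust quasi-likelihood, Benjamini-Hochberg adjusted p under 0.05), in R 4.3.3. The scripts were tested on simulated data. The SE of a log2 fold change was its size over the square root of F. Library totals were 65630784 to 80105872 counts. Summed immunoglobulin segments were compared by an exact permutation test (scipy 1.17.1). Its 6 sums were heavy, kappa, lambda and all segments, the light chain constant genes and the switched heavy constant genes. The sum of all segments contains the heavy, kappa and lambda sums, and the light chain constant sum contains the member Igkc. Nearness to Ighm used log2(CPM + 0.1). Alternatives were RLE and upper quartile scaling, DESeq2 1.42.0, limma-voom (limma 3.58.1), 2 other filters, a replicate block, counts divided by 4, each replicate left out, and AC CM replicate 1 as the single AC CM library.

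The members and lists were chosen with earlier results of these data known. Besides the members, the genes named were, of each B lineage list, up to 6 that passed with the smallest p and up to 4 with the highest mean CPM. They were also the leading markers of other cell types, the 5 other immunoglobulin genes with the most counts and the 5 genes nearest to Ighm. Pigr and Iglc1, and any gene at 0 in all libraries, were named after their values were seen. So were Rag1, Vpreb1, Vpreb3, Dntt, Tnfrsf17, Mzb1, Blk, Acan, Hapln1 and Col9a1. Not every gene chosen in these ways is reported here.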

Additional observations from a re-analysis of the deposited data

How the results depend on the processing

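Among all genes, 4741 changed, and 3158 to 5023 did with each replicate left out in turn, the fewest without AC CM replicate 3. Without both AC CM replicates 2 and 3, 1274 genes changed, and 24 of the B lineage genes did, against 39 with all libraries. That fit has 1 AC CM library, which is assumed to vary like the C CM libraries. Leaving out single replicates gave 37 to 40 B lineage genes changed. With the replicate number as a block, 4397 genes and 40 B lineage genes changed. Deviations of same-numbered samples correlated at -0.116, -0.031 and -0.014. With n = 3 per group, these values cannot tell whether same-numbered samples share an animal, culture or batch. Over all alternatives run, Ighm stayed between -2.89 and -2.76 and Cd79b between -1.32 and -1.14 on the log2 scale. Jchain was at -1.25, at -8.32 with AC CM replicate 1 alone (0 counts), and at -2.40 with the block and -2.95 by limma-voom. Genes named only after their values were seen, except Iglc1, were left out of the next counts. Among the values of the other named genes under these alternatives, 1116 kept the direction and side of the threshold. Another 45 lost the call, 9 gained it and 12 turned direction, these last all in genes that passed neither way. Igha was at -6.04 with AC CM replicate 1 alone, and the others turned as single replicates were left out: Cd37 (-0.02 to 0.12), Ptprc (0.00 to 0.18), Slamf7 (-0.01 to 0.13), Cd28 (-0.04 to 0.15), Col11a2 (-0.06 to 0.44) and Sox9 (-0.35 to 0.37). Sox9 also turned to 0.13 by limma-voom, 0.12 with the block and 0.05 with AC CM replicate 1 alone. Under the block Lag3 lost its call (adjusted p = 0.0656) and Fscn1 gained one (0.0106). Low counts limit Cd79a, Ms4a1, Pax5, Igkc and Jchain in AC CM, and the labels do not tell cultures apart.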
